A study of Mus musculus with 9 samples.

Results

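The 8 genes described here belong to the Ly6/uPAR superfamily of surface proteins. They are Ly6e, Ly6a, Ly6c1, Ly6c2, Ly6i, Ly6k, Lypd3 and Gpihbp1, listed by symbol and matched to 8 of the 55487 mouse gene identifiers of the count tables. Only Ly6e, 1 of the 8, had any count. The other 7 were at 0 in all 9 libraries. The list was chosen by the levels of Ly6e in these libraries, high in wild-type, low in ΔTAD and nearly absent in knock-out macrophages, so those levels are given as a description and without a test.

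RNA was sequenced from RAW264.7 cells, an established mouse macrophage line that was transformed with Abelson leukaemia virus, in 3 genotypes of 3 libraries each. Wild-type cells carried intact Cebpd, the gene of the transcription factor C/EBPδ. In ΔTAD cells CRISPR guides had removed the transactivation domain of C/EBPδ, and the study takes the protein to be absent from knock-out cells. All cells were unstimulated. According to the methods of the study, edited cells were selected with puromycin and sorted as single cells, and clones in which the removal of the domain shifted the reading frame served as knock-outs. The design text speaks of independent clones but does not say whether the libraries of 1 genotype each come from a clone of their own, so the p-values measure only the spread between these libraries, which may be technical.

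Ly6 proteins are small, rich in cysteines that hold a fold of finger-like loops, and most of them hang on the outer face of the membrane by a glycosylphosphatidylinositol (GPI) anchor. In mouse blood cells they are best known as markers: Ly6c separates monocyte subsets, and Ly6a, known as stem cell antigen, marks haematopoietic progenitors. Ly6e is induced by interferon in many cell types, Ly6k acts in the testis, Lypd3 is a protein of keratinocytes, and Gpihbp1 carries lipoprotein lipase across the capillary endothelium.

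Between 16113306 and 20981829 counts per library fell on genes. A floor of 3 counts corresponds to 0.143 to 0.186 CPM, a count relative to the size of its library, and intervals and floors given here cover counting error only. ΔTAD replicate 1 stood apart from the other libraries. A single identifier, CT010467.1, took 11.0% of its counts against 1.15% and 1.16% in the other ΔTAD libraries, and values without this library are given beside the main results on Ly6e, Plaur and Tex101 and beside the counts of each gene group. Among the other named genes, calls lost without it were those of Cd48 and Angptl4 in knock-out against ΔTAD and of Cd36 in ΔTAD against wild-type. Of 10 macrophage markers 9 were above the floor in at least 1 library, with summed levels of 3450 to 3670 CPM for wild-type, 4570 to 4960 for knock-out and 7120 to 7260 for ΔTAD libraries. Mertk, the tenth of these markers, stayed under the floor. Of 5 endothelial markers 4 were above the floor, among them Vwf, and their sum was 7.99 to 9.92, 38.1 to 39.4 and 17.3 to 18.8 CPM in that order. The 5 B cell, 5 fibroblast and 6 epithelial markers were all at or under the floor. Of 6 T cell markers 2 were above it, with sums of 6.38 to 7.29, 4.76 to 5.06 and 4.71 to 6.0 CPM in the same order of genotypes. The same held for 2 of 7 neutrophil markers, whose sums were 0.908 to 1.45, 1.21 to 1.53 and 0.42 to 1.43 CPM in that order. The part of these shifts in the results below was not tested. Cebpd itself was at 6.13, 7.29 and 6.12 CPM in wild-type libraries, at 5.22, 5.50 and 5.61 in those of knock-out cells and at 4.90, 5.23 and 6.19 in those of ΔTAD cells, and passed the test in no contrast. Counts over a whole gene do not resolve a removed stretch, so these values check no label.

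Sequences bear on the 7 genes without counts, since reads that match several genes were set aside when the tables were made. Ly6c1 and Ly6c2 are an example. Their coding sequences, 393 bases each in the GENCODE transcripts of GRCm38, differ at 9 positions, and 6 of these lie in the stretch from base 6 to base 65, counted from the start codon and printed here with the differing bases in capitals.
Ly6c1: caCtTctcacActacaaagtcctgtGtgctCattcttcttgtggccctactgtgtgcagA
Ly6c2: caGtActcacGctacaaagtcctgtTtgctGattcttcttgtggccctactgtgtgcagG
Reads were 50 bases long, and a read inside a shared stretch cannot be given to one of the genes.

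The promoters of Tex101 and Plaur are shown because these are the other family genes whose levels moved with genotype. The sequences are those of RefSeq on GRCm38.p6, up to 250 bases before a start site and 5′ to 3′ on the strand of the gene. Capitals mark CCAAT or its reverse ATTGG in Tex101, and TTGCNNAA or its reverse TTNNGCAA, a pair of C/EBP half-sites, in Plaur. The first window is chr7:24672051-24672300 on the minus strand and the second is chr7:24462233-24462482 on the plus strand. The start site of Tex101 used here lies inside the gene as GENCODE annotates it, at chr7:24668007-24676675.
Tex101: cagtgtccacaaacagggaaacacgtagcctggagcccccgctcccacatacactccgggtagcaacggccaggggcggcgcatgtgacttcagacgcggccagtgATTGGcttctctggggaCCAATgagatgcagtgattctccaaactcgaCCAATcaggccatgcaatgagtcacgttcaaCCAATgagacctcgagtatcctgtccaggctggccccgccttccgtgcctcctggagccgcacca
Plaur: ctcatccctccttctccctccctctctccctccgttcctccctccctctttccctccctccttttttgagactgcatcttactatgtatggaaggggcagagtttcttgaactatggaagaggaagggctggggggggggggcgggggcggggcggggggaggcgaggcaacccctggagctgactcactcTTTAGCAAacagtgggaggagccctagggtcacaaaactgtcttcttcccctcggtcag
Tex101 held 4 matches to CCAAT on either strand and Plaur 1 match to TTGCNNAA. Of all 32851 RefSeq windows of 300 bases, which reach 50 bases past the start, 37.4% held CCAAT, 10.8% TTGCNNAA and 3.4% GAAA repeated after 2 bases, a motif of interferon response elements. The motifs do not overlap in these windows. Among the 8 genes, Ly6c1, Ly6c2 and Lypd3 were matched to an entry. Ly6c1 held 1 CCAAT in 1 of its entries, Lypd3 held 1 TTGCNNAA, and Ly6c2 held none of the 3 motifs. Ly6e, Ly6a, Ly6i, Ly6k and Gpihbp1 were not matched. The shares are of windows with at least 1 match, so they set no scale for the 4 in Tex101. Lypd11 (Gm4763), a further family gene, was at 0 in all 9 libraries and held 6 CCAAT and 2 TTGCNNAA in 1 of its entries. A match is a description of letters and no evidence of binding.

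Ly6e (ENSMUSG00000022587) lies on the plus strand at chr15:74955051-74959905 of GRCm38. Its counts were 9332, 7619 and 7541 for wild-type cells. Only 1, 3 and 2 were found for knock-out cells. ΔTAD cells lay between, with 235, 316 and 362. The 3 genotypes did not overlap. Scaled levels were 454 ± 12.3 CPM for wild-type, 0.116 ± 0.0643 for knock-out and 16.3 ± 1.04 for ΔTAD macrophages (SD, n = 3). The order was therefore wild-type, ΔTAD and knock-out, with every step beyond the spread of the libraries. In RNA from whole cultures, fewer cells with a transcript and less of it per cell cannot be told apart.

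Knock-out libraries held so few counts that the difference is best given as a ratio. Over the 3 libraries of each genotype, 24492 counts against 6, set against the sizes of the libraries, gave a level 4030-fold higher in wild-type than in knock-out cells (95% interval of the counts 1851 to 10982). ΔTAD exceeded knock-out 144-fold, with an interval from 66.0 to 394. ΔTAD against wild-type differed by -4.80 on the log2 scale (standard error 0.0485), and by -4.84 without ΔTAD replicate 1. The wild-type to knock-out ratio moved between 3111 and 5551 when single libraries were left out. Ly6e, the only 1 of the 8 genes that could be tested, counted as lower in each contrast. Of all 14312 genes tested, 45.2% were called in either direction when knock-out was set against wild-type (22.8% higher and 22.4% lower), 49.7% when ΔTAD was (26.3% higher and 23.4% lower), and 33.0% between the edited genotypes (13.9% higher and 19.1% lower in knock-out). Nothing is read from that count, since the same values chose the gene.

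**Figure D1:**
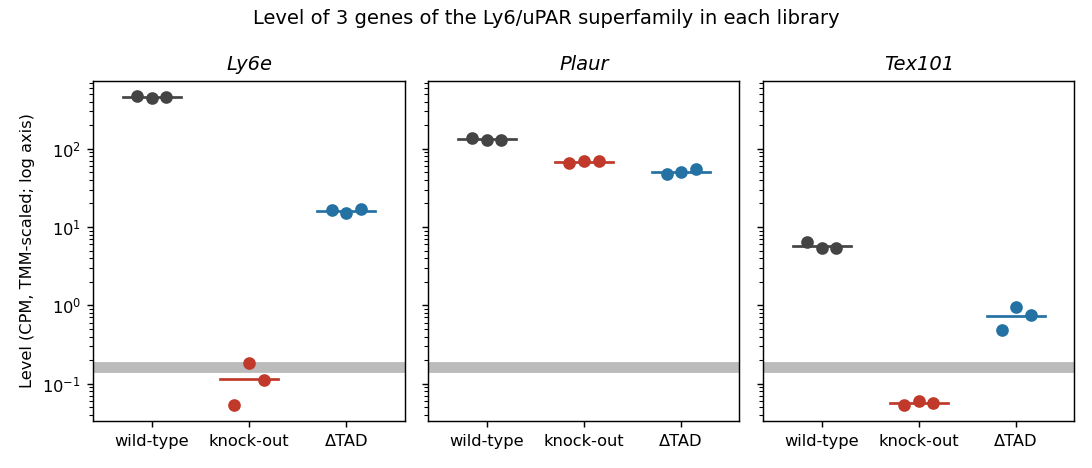
Levels in each of the 9 libraries (points) with the genotype mean (line) for Ly6e, Plaur and Tex101, as TMM-scaled CPM on a log axis. The grey band is the floor of 3 counts, 0.143 to 0.186 CPM, and the knock-out libraries lie at or below it for Ly6e and Tex101 but not for Plaur.

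Among the tested genes with a known length, Ly6e stood near the top in wild-type macrophages. Per kilobase of exon it reached 120 CPM in wild-type macrophages, rank 297 of 14294 genes, above 97.9% of them, where the median gene had 5.75 CPM per kilobase. In ΔTAD macrophages it had 4.3 CPM per kilobase, rank 8197, above 42.7% of genes. In knock-out macrophages it had 0.0306 CPM per kilobase. No rank is read from that value, because Ly6e was among the tested genes through its counts in the other genotypes.

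Ly6a, Ly6c1, Ly6c2, Ly6i, Ly6k, Lypd3 and Gpihbp1 had 0 counts in every library of every genotype. Against 163030154 counts over the 9 libraries, a count of 0 allows a level of up to 0.0184 CPM, and a single library allows up to its floor. This was not unusual in the table. Of 55487 identifiers 51.7% were at 0 in all 9 libraries, and so were 32.4% of the 21897 protein-coding ones. None of these 7 genes could be tested in any contrast, and no difference between genotypes was detectable at this depth.

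The tables could have hidden reads shared by paralogs, so the share of each transcript set that a read of 50 bases can place was computed by exact match among annotated transcripts. All windows of Ly6e and Gpihbp1, 100%, were found in no other gene. For Ly6i the share was 95.2%, for Lypd3 91.9%, for Ly6c2 85.5% and for Ly6a 81.0%. Ly6c1 and Ly6k were lowest, with 67.2% and 67.3%. Most positions of all 8 genes could therefore be told from other genes, and the 0 counts cover those positions only. Ly6c1 shares windows with Ly6c2, Ly6a and Ly6i, Ly6k with Gm17189, and Lypd3 with Gm26550.

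Most of the 8 genes lie together. On chromosome 15 of GRCm38, Ly6k is at chr15:74796874-74799986, Ly6i at chr15:74979534-74983430, Ly6a at chr15:74994877-74998031, Ly6c1 at chr15:75044018-75048830, Ly6c2 at chr15:75108158-75111970 and Gpihbp1 at chr15:75596628-75599481. Ly6i, 19.6 kb from Ly6e, and Ly6a, 35.0 kb from it, had no count in the wild-type libraries in which Ly6e was among the most abundant transcripts. Lypd3 is on chromosome 7 at chr7:24636550-24641118.

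**Figure D2:**
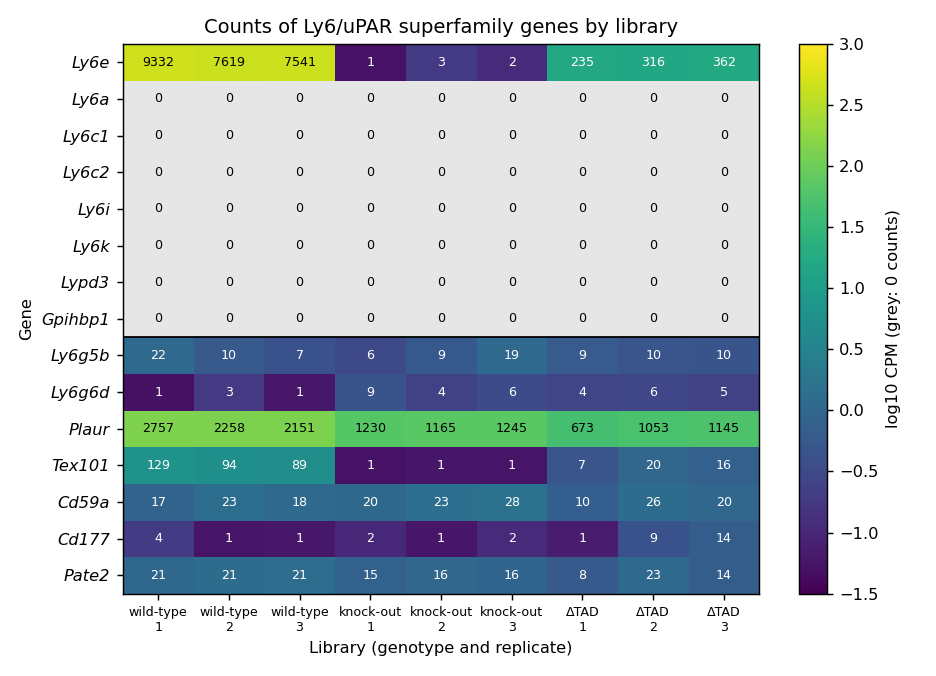
Raw counts (numbers) and log10 CPM (colour, grey for 0) of the 8 genes, above the line, and of the 7 other family genes that passed 3 counts in any library, below it, in the 9 libraries. Ly6e, Plaur and Tex101 fall from wild-type to both edited genotypes, and the other 7 of the 8 genes are at 0 throughout.

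Outside the 8 genes, 40 further symbols of the superfamily were listed and 38 were found. Of these 17 were at 0 in all 9 libraries, 7 passed 3 counts in any library and 5 were tested. Plaur and Tex101 were lower than wild-type in both edited genotypes, 2 of 5 in each contrast, beside 45.2% and 49.7% of all genes called in either direction. The median log2 fold change of the 5 was -0.40 in knock-out and -0.55 in ΔTAD, beside 0.00 over all genes tested in both. Knock-out and ΔTAD macrophages differed in the same 2 genes, in opposite directions, 40.0% beside 33.0% of all genes. In a model of those genotypes only, Plaur alone was called, since Tex101 had too few counts there to be tested. Without ΔTAD replicate 1 the counts were 2, 2 and 2. In every contrast with all libraries in the model, Tex101 was tested only through its wild-type counts.

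Plaur (ENSMUSG00000046223) encodes the receptor of urokinase, uPAR, which gathers plasminogen activation at the cell surface. Its counts were 2757, 2258 and 2151 for wild-type, 1230, 1165 and 1245 for knock-out and 673, 1053 and 1145 for ΔTAD libraries. Levels were 133 ± 4.04, 68.6 ± 3.25 and 50.7 ± 3.71 CPM in that order (SD, n = 3), and the genotypes did not overlap. Plaur thus stood lowest in ΔTAD cells, unlike Ly6e. The log2 fold change was -0.96 (standard error 0.0416) in knock-out against wild-type, with an edgeR quasi-likelihood Benjamini-Hochberg adjusted p of 9.35e-16. It was -1.38 (0.0431) in ΔTAD against wild-type (edgeR adjusted p = 1.02e-18). Knock-out exceeded ΔTAD by 0.43 (0.0465) on the log2 scale (edgeR adjusted p = 8.38e-08), and by 0.41 without ΔTAD replicate 1.

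Tex101 (ENSMUSG00000062773), a GPI-anchored protein known from germ cells, reached 129, 94 and 89 counts with wild-type cells. Each knock-out library held 1 count, and ΔTAD libraries held 7, 20 and 16. Levels were 5.75 ± 0.588 CPM for wild-type, 0.0566 ± 0.00385 for knock-out and 0.737 ± 0.236 for ΔTAD macrophages (SD, n = 3). The order of the genotypes was that of Ly6e, at a far lower level. Wild-type exceeded knock-out 102.7-fold (95% interval of the counts 34.8 to 501), and ΔTAD exceeded knock-out 13.6-fold (4.35 to 68.4). ΔTAD against wild-type gave a log2 fold change of -2.91 (standard error 0.207, edgeR adjusted p = 9.51e-12), and -2.77 without ΔTAD replicate 1. The edgeR adjusted p was 4.55e-14 for knock-out against wild-type and 1.31e-05 for knock-out against ΔTAD. Tex101 was among the tested genes only through its wild-type counts, so nothing is read from its p-values.

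Ly6g5b, Cd59a and Pate2 did not pass the test in any contrast. Cd59a, which blocks the membrane attack complex of complement, had 1.09 ± 0.242 CPM with wild-type, 1.34 ± 0.269 with knock-out and 0.967 ± 0.275 with ΔTAD cells (SD, n = 3). Ly6g5b ranged from 0.316 to 1.10 CPM and Pate2 from 0.56 to 1.27 CPM over the 9 libraries. At these levels only large differences were detectable. Cd177 and Ly6g6d, which were picked out after their values were seen, passed 3 counts in some libraries but were not tested, with at most 14 and 9 counts.

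The make-up of the counts on the superfamily differed between genotypes. In wild-type macrophages 76.2% of the 32159 counts on the superfamily came from Ly6e. The share was 22.8% of 4006 counts in ΔTAD and 0.156% of 3844 counts in knock-out macrophages. Per kilobase of exon, wild-type Ly6e at 120 CPM stood above Plaur at 50.7 and Tex101 at 3.47. In ΔTAD cells the order of the upper pair turned, with Plaur at 19.4 and Ly6e at 4.3 CPM per kilobase.

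The genes whose profiles lay nearest to that of Ly6e were found by the Euclidean distance between log2 CPM values (prior count 2) over the 9 libraries, each gene set to its wild-type mean. This measure uses the genotype levels, so no test is given, and a short distance says nothing of shared function or control. Nedd4, a ubiquitin ligase, was nearest at a distance of 0.78 over the 9 libraries. Its counts were 8383, 7198 and 6783 for wild-type cells, 1 for each knock-out library and 255, 325 and 331 for ΔTAD cells. Per kilobase of exon its level was below that of Ly6e, at 37.8 against 120 CPM in wild-type and 1.49 against 4.3 CPM in ΔTAD cells.

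After Nedd4 there was a wide gap. Lgalsl, a galectin-like gene, followed at 5.7, Wwc2, a scaffold related to Hippo signalling, at 6.23, Lpin3, a phosphatidate phosphatase, at 6.58 and Rasal3, which stimulates Ras GTPase activity, at 6.9. Lgalsl, Wwc2 and Rasal3 had 0 counts in all knock-out libraries. Against 3 counts over the group, wild-type Lgalsl was at least 423-fold higher, Wwc2 at least 346-fold and Rasal3 at least 273-fold. Lpin3 counts were 644, 462 and 475 for wild-type, 1, 1 and 2 for knock-out, and 17, 37 and 41 for ΔTAD cells. Tex101 came at rank 28 of 14311 genes with a distance of 10.8. With a prior count of 0.5 the list shared 4 of its 5 genes, and with Pearson r in place of the distance it shared 1, Nedd4.

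**Figure D3:**
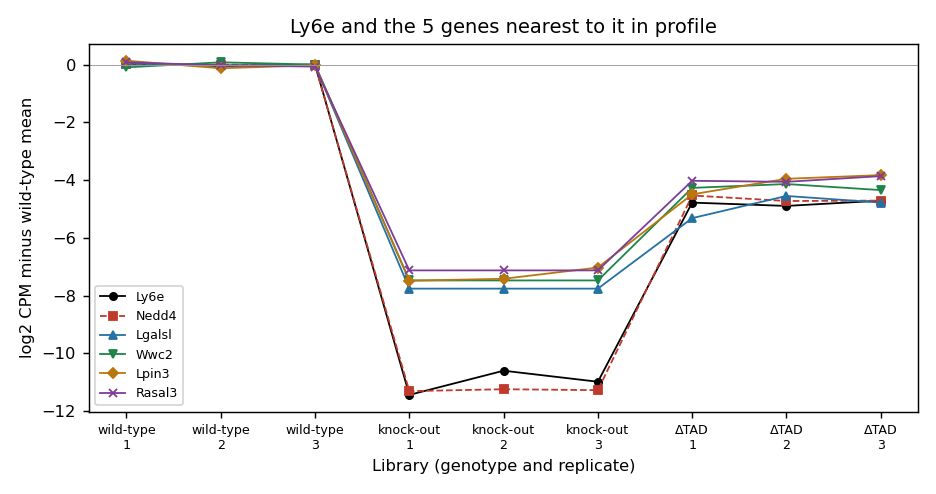
Log2 CPM (prior count 2) minus the wild-type mean in the 9 libraries for Ly6e and the 5 genes nearest to it. Nedd4 runs with Ly6e in all genotypes, whereas the other 4 genes, which are lower in wild-type cells, reach their floor in knock-out libraries higher up.

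Genes around Ly6e on chromosome 15 were counted in the same way. Within 1 Mb, 57 genes outside the family were annotated and 15 were tested. In knock-out against wild-type 2 were higher and 5 lower, and in ΔTAD against wild-type 4 were higher and 4 lower. Together 46.7% and 53.3% of them were called, beside 45.2% and 49.7% of all genes. Their median log2 fold change was -0.16 and -0.10, beside 0.00 over all genes tested. Adgrb1, counted as lower in both, was tested only through its wild-type counts.

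The largest falls were on the side before Ly6e. Adgrb1, an adhesion receptor for apoptotic cells that starts at -438.9 kb from it, had 18, 28 and 21 counts in wild-type libraries, 0, 0 and 2 in knock-out and 0, 2 and 0 in ΔTAD libraries. Wild-type Adgrb1 exceeded knock-out 33.1-fold (95% interval of the counts 8.81 to 279) and ΔTAD 34.9-fold (9.30 to 294). Arc, known as an early response gene of neurons, starts at -286.0 kb and fell by 1.16 (standard error 0.132, edgeR adjusted p = 4.83e-08) in knock-out and by 0.92 (0.126, edgeR adjusted p = 8.2e-07) in ΔTAD cells on the log2 scale. Its ΔTAD value was -0.88 without ΔTAD replicate 1. Arc did not pass the test between knock-out and ΔTAD (edgeR adjusted p = 0.195). Adgrb1 was tested there through its wild-type counts (edgeR adjusted p = 0.973). With 2 counts in each edited genotype the test could not show a difference, and nothing is read from it.

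Other neighbours are named after their values were seen. Them6 was lower in both edited genotypes (-0.64 and -0.57 on the log2 scale), Jrk in ΔTAD (-0.49), and Top1mt (-0.36) and Eef1d (-0.24) in knock-out. Gsdmd, which forms the membrane pores of pyroptosis, was higher in both (0.70 and 0.81), as was Zfp41 (0.38 and 0.45), and Pycrl (0.20) and Tsta3 (0.33) were higher in ΔTAD. In knock-out against ΔTAD 3 of the 15 were lower, beside 19.1% of all genes, namely Tsta3 (-0.41), Pycrl (-0.30) and Eef1d (-0.14). None passed the edgeR test as higher there, where 2 had an unadjusted p under 0.05 in that direction and DESeq2 called 0. All 4 genes tested within 0.5 Mb were lower in ΔTAD cells, beside 23.4% of all genes, and 3 of them in knock-out cells, beside 22.4%. Adgrb1, lower in both, was tested only through its wild-type counts. The others, Arc, Jrk and Them6, start between -286.0 and -233.8 kb from Ly6e. Without ΔTAD replicate 1 the neighbours called were 2 higher and 5 lower in knock-out, 3 higher and 4 lower in ΔTAD, and 1 higher and 3 lower between them.

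**Figure D4:**
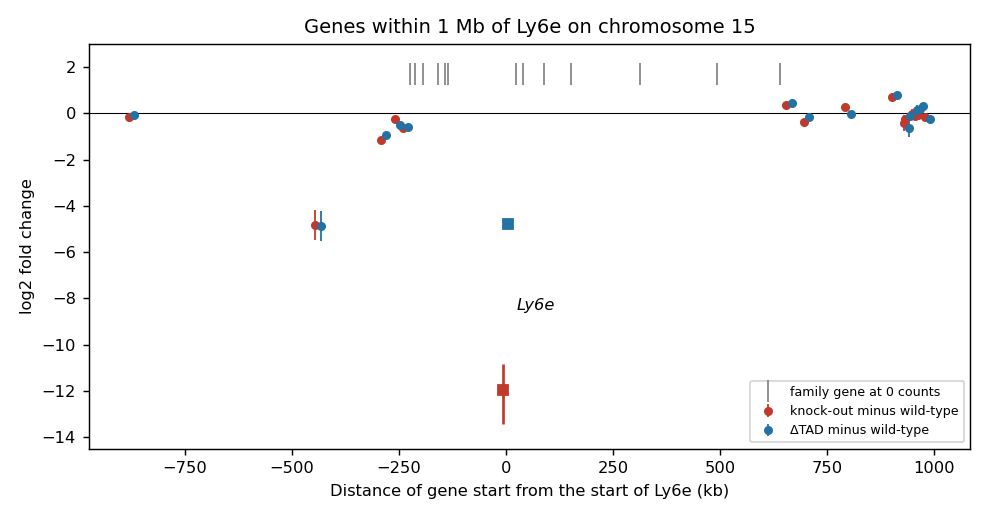
Log2 fold change against wild-type of the 15 tested genes within 1 Mb of Ly6e (circles, standard error bars) and of Ly6e (squares, for knock-out the ratio of counts with its 95% interval), by distance from the start of Ly6e in kb. Grey ticks mark family genes at 0 counts, and no tested gene lies between those at -233.8 kb and 661.6 kb except Ly6e.

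Since Ly6e is known to be induced by interferon, 32 interferon-stimulated genes were counted, of which 27 were tested. In knock-out against wild-type macrophages 21 were higher and 2 lower, while Ly6e was nearly absent. The share called was 85.2%, beside 45.2% of all genes, and the median log2 fold change was 0.94, beside 0.00. In ΔTAD against wild-type 7 were higher and 4 lower, a share of 40.7% beside 49.7%, with a median of 0.00. Knock-out exceeded ΔTAD in 19 of the 27, a share of 70.4%. Of all genes 13.9% were higher there, and 33.0% were called in either direction. The median was 0.96 beside -0.03. None was lower there by edgeR or DESeq2, and none had an unadjusted p under 0.05 in that direction. Without ΔTAD replicate 1 the counts were 23 higher and 2 lower, 7 higher and 3 lower, and 21 higher and 0 lower. Rtp4, tested only through its knock-out counts, is among the genes higher in knock-out in both contrasts.

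Rtp4, a chaperone of surface receptors, had 5, 4 and 7 counts with wild-type, 30, 17 and 31 with knock-out and 3, 4 and 8 with ΔTAD cells. It rose by 2.27 on the log2 scale in knock-out (standard error 0.366, edgeR adjusted p = 9.99e-06) and gave -0.15 (0.522) in ΔTAD cells (edgeR adjusted p = 0.82). Rtp4 was among the tested genes only through its knock-out counts, so nothing is read from these p-values. Eif2ak2, the RNA-dependent kinase PKR, rose in both, by 1.04 (0.0376) and 0.90 (0.0378) on the log2 scale (edgeR adjusted p = 2.44e-17 and 3.87e-16). Knock-out exceeded ΔTAD in Eif2ak2 by 0.14 (edgeR adjusted p = 0.00184), a call lost without ΔTAD replicate 3 (0.12, edgeR adjusted p = 0.0179), with every gene of at least 1 count in the fit (0.12, edgeR adjusted p = 0.012) and without knock-out replicate 3 (0.12, edgeR adjusted p = 0.0177).

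Lower than wild-type, as Ly6e was, were 2 of the 23 interferon-stimulated genes called in knock-out and 4 of the 11 called in ΔTAD. The 4 in ΔTAD were the only genes called there that moved by 1 or more on the log2 scale. Rsad2, which blocks virus budding, fell by 1.82 on the log2 scale (standard error 0.257, edgeR adjusted p = 1.33e-06) in ΔTAD cells, and gave 0.16 (0.196, edgeR adjusted p = 0.52) in knock-out cells. The ΔTAD value was -1.80 without ΔTAD replicate 1. Ifih1, a sensor of double-stranded RNA, was lower in both, by log2 fold changes of -1.0 and -1.43 (edgeR adjusted p = 0.00206 and 7.6e-05). The knock-out call of Ifih1 was lost without knock-out replicate 3 (-0.75, edgeR adjusted p = 0.0221) and without wild-type replicate 2 (-0.70, edgeR adjusted p = 0.0378). Oasl1, named after its values were seen, was the other gene lower in knock-out cells (-0.45), and with Cmpk2 (-1.11) it was lower in ΔTAD cells (-1.08).

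Ly6 proteins reach the surface on a GPI anchor, so the 29 genes that make and attach the anchor were counted, of which 28 were tested. In knock-out macrophages 5 were higher and 6 lower, 39.3% beside 45.2% of all genes. In ΔTAD macrophages 8 were higher and 6 lower, 14 of 28 beside 49.7%. The medians were -0.07 and 0.00, and no called gene moved by 1 or more on the log2 scale. The knock-out count fell from 11 to 7 without knock-out replicate 3. Without ΔTAD replicate 1 the counts were 5 higher and 6 lower in knock-out and 8 higher and 7 lower in ΔTAD.

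Pgap3, which remodels the fatty acids of the anchor, rose most, from 4.26 ± 0.199 CPM in wild-type to 6.34 ± 0.44 in knock-out and 6.82 ± 0.472 in ΔTAD cells (SD, n = 3). Its log2 fold changes were 0.57 (standard error 0.125) and 0.68 (0.122), with edgeR adjusted p of 0.000362 and 3.53e-05. Pigh, a subunit of the enzyme of the first step, fell by 0.47 (0.0914) and by 0.57 (0.0917) on the log2 scale (edgeR adjusted p = 0.0001 and 8.47e-06). The others that were higher in knock-out were Pigq, Pigg, Dpm3 and Pigu, at 0.21 to 0.51. They are named after their values were seen.

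Knock-out and ΔTAD differed in 5 anchor genes, 17.9% beside 33.0%. Pigm, which adds the first mannose, was higher by 0.21 (standard error 0.0415, edgeR adjusted p = 0.000295). Pigt, a subunit of the transamidase that attaches the anchor, was lower by a log2 fold change of -0.26 (0.0457, edgeR adjusted p = 5.49e-05), and so were Pigc, Pgap2 and Pigq. That count fell to 2 without ΔTAD replicate 2, ΔTAD replicate 3 or knock-out replicate 2, to 3 without knock-out replicate 1 or wild-type replicate 2, and to 4 (2 higher and 2 lower) without ΔTAD replicate 1.

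Genes listed for GPI-anchored proteins of other folds were also counted, 30 genes of which 12 were tested. The list holds Ulbp1, although the mouse protein spans the membrane and is not GPI-anchored. All counts of this group were made with Ulbp1 in the list. Ulbp1 was called in knock-out (0.26) and ΔTAD (0.49) against wild-type and in knock-out against ΔTAD (-0.23). In knock-out 4 were higher and 5 lower, and in ΔTAD 5 were higher and 4 lower, 9 of 12 in each, beside 45.2% and 49.7%. The medians were 0.00 and 0.20. Knock-out was below ΔTAD in 7 (58.3%, beside 19.1% of all genes) and above it in 0 (beside 13.9%) by edgeR, also by DESeq2 and at an unadjusted p under 0.05 in that direction. The 7 include Cd48, which was tested there through its wild-type counts. Under scaling by library size alone 1 gene was called in that contrast. Without ΔTAD replicate 1 the counts were 4 higher and 5 lower, 5 higher and 4 lower, and 0 higher and 6 lower. Alpl and Cd48 were nearly lost in both edited genotypes. Both were tested only through their wild-type counts, and both are among the genes counted as lower than wild-type.

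Alpl, the alkaline phosphatase of bone and other tissues, had 93, 76 and 48 counts in wild-type libraries, 0 in all knock-out libraries and 0, 0 and 1 in ΔTAD libraries. Against 3 counts over the group it was at least 71.4-fold higher in wild-type than in knock-out cells, and the ratio to ΔTAD was 226 (95% interval of the counts 40.2 to 8975). Cd48, a ligand of the SLAM receptor family, was at 6.38, 6.42 and 6.30 CPM in wild-type libraries, 343 counts in all, and had 1, 2 and 3 counts with knock-out and 6, 8 and 10 with ΔTAD cells. The order was again that of Ly6e, with wild-type 56.4-fold above knock-out (25.7 to 155) and a log2 fold change of -3.88 in ΔTAD (standard error 0.216, edgeR adjusted p = 9.21e-14). Cd48 was tested against wild-type only through its wild-type counts, so nothing is read from that p-value.

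Knock-out Cd48 lay below ΔTAD, with a ratio of 3.79 for ΔTAD over knock-out (95% interval of the counts 1.51 to 11.3). It was tested in this contrast through its wild-type counts, since no edited library held over 10. The fitted log2 fold change was -1.86 (standard error 0.52, edgeR adjusted p = 0.00531). This call was lost without ΔTAD replicate 1 (edgeR adjusted p = 0.0116), ΔTAD replicate 3 (0.0213), knock-out replicate 1 (0.0414) or knock-out replicate 2 (0.0154), and under DESeq2 (0.017) and scaling by library size alone (0.0114). Prnp, the prion protein, rose in both edited genotypes, by 1.27 (0.0953) and 1.34 (0.094) on the log2 scale (edgeR adjusted p = 2.85e-11 and 7.67e-12), the latter 1.25 without ΔTAD replicate 1. Cd14, the receptor of lipopolysaccharide, was higher by 0.15 in knock-out and 0.32 in ΔTAD (edgeR adjusted p = 6.89e-05 and 2.84e-10), the former a call lost under library size alone (0.0766). Raet1d and Raet1e, ligands of a natural killer cell receptor, were lower in both, at -1.79 and -1.66 in knock-out and -1.49 and -1.34 in ΔTAD. Bst1 (0.79 and 1.02) and Ulbp1 (0.26 and 0.49) were higher in both, Hyal2 (0.38) was higher in ΔTAD and Bst2 (-0.24) lower in knock-out. These 6 are named after their values were seen.

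Gpihbp1 was at 0, yet genes listed for the handling of lipoprotein lipase were present, and 7 of 15 were tested. The list holds Cd36, although it takes up fatty acids and does not handle the lipase. All counts of this group were made with Cd36 in the list. In knock-out 4 were higher and 2 lower, and in ΔTAD 5 were higher and 2 lower, 85.7% and 100% beside 45.2% and 49.7%. The medians were 0.29 and 0.37, and no called gene moved by 1 or more on the log2 scale. Cd36 had 311 ± 14.2 CPM with wild-type, 457 ± 18.4 with knock-out and 344 ± 12.5 with ΔTAD cells (SD, n = 3). It rose by 0.56 on the log2 scale in knock-out (standard error 0.0404, edgeR adjusted p = 1.57e-11) and by 0.15 in ΔTAD (0.0404, edgeR adjusted p = 0.00341). The ΔTAD call was lost under library size alone (0.05, edgeR adjusted p = 0.508). It was also lost without ΔTAD replicates 1 (edgeR adjusted p = 0.0254) or 2 (0.0213), or wild-type replicates 1 (0.0113) or 3 (0.0298). Sel1l, needed for the lipase to leave the endoplasmic reticulum, fell by 0.60 and by 0.51 on the log2 scale (edgeR adjusted p = 1.62e-13 and 3.56e-12).

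Angptl4, an inhibitor of the lipase, rose by 0.62 in ΔTAD (standard error 0.0899, edgeR adjusted p = 1.82e-06). In knock-out it gave 0.29 (0.0945, edgeR adjusted p = 0.0127), and it passed the test there without wild-type replicate 1 (0.36, edgeR adjusted p = 0.00684). Lpl itself (0.53 and 0.37), Lmf1 (0.38 and 0.49) and Lmf2 (0.20 and 0.37) were higher and Furin (-0.30 and -0.28) lower in both edited genotypes. These 4 are named after their values were seen. Without ΔTAD replicate 1 the counts were 4 higher and 2 lower in both. In knock-out against ΔTAD 3 of 7 were called, 42.9% beside 33.0% of all genes, also without that library. Cd36 (0.41) and Lpl (0.15) were higher and Angptl4 (-0.34) was lower. The Angptl4 call was lost without ΔTAD replicates 1 (edgeR adjusted p = 0.0111) or 2 (0.0122), knock-out replicates 1 (0.0111) or 2 (0.0171), under DESeq2 (0.018) and under library size alone (0.0447).

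**Figure D5:**
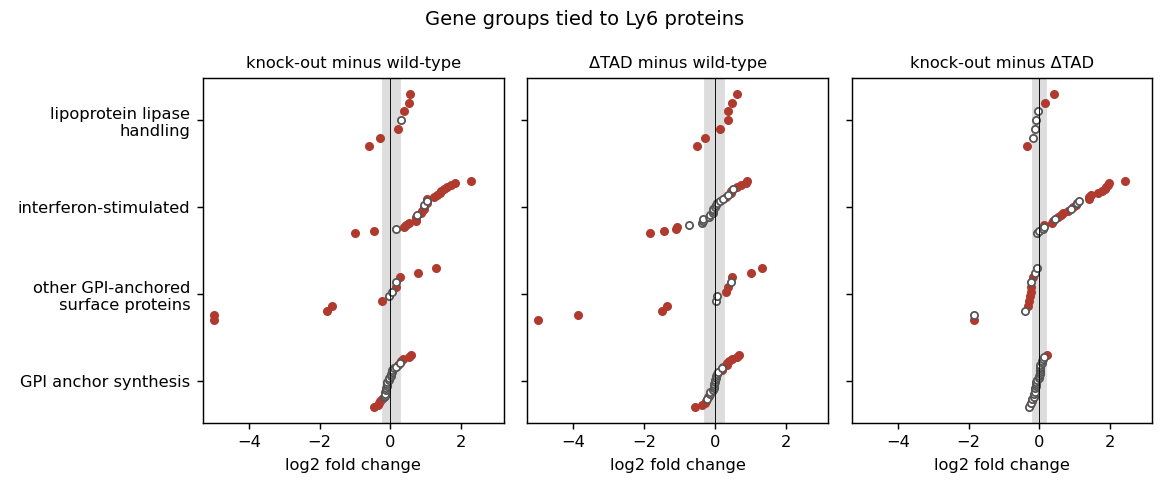
Log2 fold changes of the tested genes of 4 groups in the 3 contrasts, filled where called at an adjusted p under 0.01 and open where not. The grey band runs from the lower to the upper quartile of all genes tested, values under -5 (Alpl and Cd48) are drawn at -5, and most interferon-stimulated genes lie to the right in both knock-out panels.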

How the data were processed

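The authors deposited 1 table of counts per library: whole numbers of reads per Ensembl gene, without normalization. Libraries were made from RNA depleted of ribosomal RNA and read as single reads of 50 bases. According to the submitters' processing notes and the methods of the study, reads were trimmed with Trimmomatic (the version differs between these sources), aligned to GRCm38 with HISAT2 and counted with HTSeq. The strand setting is not given in the sources used here, so genes that overlap are uncertain, and reads aligned to several places (11.78% to 16.28% of records) are outside the counts. Between 46.65% and 53.23% of records fell on genes.

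Genotypes and replicate numbers were taken from the labels. The tests were run in edgeR 4.0.16 (R 4.3.3): filterByExpr (minimum count 10, minimum total count 15) kept 14312 genes, libraries were scaled by TMM (0.888 for ΔTAD replicate 1), and 1 quasi-likelihood model was fitted to all 9 libraries. Genes were called at a Benjamini-Hochberg adjusted p under 0.01 over all genes tested. A standard error is the size of the log2 fold change over the root of its F statistic. Intervals of ratios are exact conditional binomial at 95%. Symbols, positions and exon lengths are from GENCODE M21. Alternatives included limma-voom (limma 3.58.1), DESeq2 1.42.0, other scalings, filters, thresholds and windows, a replicate block and leaving out each library. The steps were tested on simulated data.

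The 8 genes, the gene lists and the tests were chosen with earlier results of these data known. Named are Cebpd, the 8 genes, tested family genes, the 5 nearest profiles, the called gene with the highest and the lowest log2 fold change of each list and contrast, and neighbours that moved by 1 or more on the log2 scale; exceptions are marked. The genes near Tex101 were added after its values were seen.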

Additional observations from a re-analysis of the deposited data

Results flagged for a closer look

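Plaur was singled out because the edited genotypes differed from each other by the test of that difference. Knock-out macrophages stood above ΔTAD macrophages by 0.43 on the log2 scale, although both were below wild-type. Leaving out single libraries kept this value between 0.40 and 0.48.

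Tex101 was singled out for the same reason and in the other direction, with knock-out below ΔTAD by a fitted log2 fold change of -3.61. It was tested in this contrast through its wild-type counts, and in a model of the edited genotypes only it had too few counts to be tested. Its knock-out libraries held 1 count each, so the fitted value depends on the prior count and the ratio of 13.6 (95% interval of the counts 4.35 to 68.4) is the measured quantity.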

How the results depend on the processing

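Ly6e kept its direction under every alternative run, with log2 fold changes in ΔTAD from -4.89 to -4.75. With the replicate block, anchor genes called in knock-out against ΔTAD numbered 3 in place of 5, no other list's count moved by over 1.5 times and no named gene's call changed; numbers do not pair the libraries (correlations of deviations -0.072 to 0.02).

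Requiring a log2 fold change of 1 or more in size left, in knock-out, ΔTAD and their contrast, 0, 0 and 0 anchor genes, 0, 0 and 0 lipase genes, 11, 4 and 11 interferon-stimulated genes and 2, 1 and 0 neighbours. The 4 interferon-stimulated genes in ΔTAD were all lower than wild-type. The same threshold left 1 other family gene in knock-out and 1 in the contrast, and 5 and 1 other GPI-anchored genes. In knock-out against ΔTAD, anchor genes numbered 2 under DESeq2, RLE factors, library size alone or a model of those genotypes only, and 8 at adjusted p under 0.05. Also there, other GPI-anchored genes numbered 1 under library size alone, other family genes 1 in a model of those genotypes only, and at adjusted p under 0.05 lipase genes 5 and neighbours 6. Of the anchor genes called there, 1 of 5 was higher, and 1 of 2 under DESeq2, RLE factors or library size alone. In knock-out against wild-type the anchor split of 45.5% higher became 37.5% under library size alone (3 and 5), and in ΔTAD 57.1% became 46.2% (6 and 7). The neighbour split in ΔTAD of 4 higher and 4 lower became 3 and 6 there, and in knock-out against ΔTAD 0 higher and 3 lower became 1 and 1. Lipase genes there, 2 higher and 1 lower, became 2 and 0 under library size alone. Windows of 0.5 Mb gave 3, 4 and 0 neighbours called, and of 2 Mb 30, 31 and 22. Pearson r shared 1 profile gene. Leaving out 1 library gave 7 to 11 anchor genes in knock-out and 2 to 5 in knock-out against ΔTAD.

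Values that changed sign did not pass the test: Cebpd in knock-out against ΔTAD (0.00 under DESeq2, 0.05 library size, 0.01 in a model of those genotypes, -0.06 to 0.09 without a library), Prnp there (0.01 library size, -0.14 to 0.03 without a library), and, leaving out 1 library, Ly6g5b (-0.76 to 0.35 in knock-out, -0.71 to 0.04 in ΔTAD, -0.29 to 0.65 between them), Cd59a (-0.35 to 0.05) and Rtp4 (-0.56 to 0.14) in ΔTAD, Pigt in knock-out (-0.08 to 0.01), and Adgrb1 between the edited genotypes (-2.63 to 2.66). Summing paralogs gave no value, since all were at 0. The causes were not tested. Depth limits genes near the floor of 3 counts: a 0 over all libraries allows 0.0184 CPM.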

Other observations

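Around Tex101 on chromosome 7, where Plaur and Lypd3 also lie, 39 genes within 1 Mb were tested, a set added after the values of Tex101 were seen. In knock-out against wild-type 7 were higher and 6 lower, 33.3% beside 45.2% of all genes, and in ΔTAD 12 were higher and 9 lower, 53.8% beside 49.7%. Knock-out exceeded ΔTAD in 6 and lay below it in 10, 41.0% beside 33.0%. The median log2 fold changes were -0.03, 0.04 and -0.10 in that order.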
